A study of Bos taurus with 14 samples.

Results

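The transcripts described here are the 200 that varied most between cumulus cell pools of the same group, out of 38030 transcripts listed for 14 libraries. They were chosen by their measured spread. Of 10533 transcripts with a mean of at least 10 TPM (transcripts per 1000000, a relative abundance already divided by transcript length), the 100 most abundant were left out. For the remaining 10433, log2(TPM + 1) was taken, the mean of each library's own group was subtracted, and the residual SD was computed with 11 degrees of freedom. The 200 largest residual SDs, from 0.63 to 2.55 with a median of 0.78, define the members. The other 10233 eligible transcripts had a median residual SD of 0.16. The last 2 members inside the limit had residual SDs of 0.6315 and 0.6307 (transcripts of 2112 and 1643 bases), and the first 2 outside it 0.6303 and 0.63 (222 and 2116 bases). These values made the choice and are given as a description.

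Each library holds the RNA of 1 pool, made of bovine cumulus cells from 10 complexes of oocyte and cumulus. The groups follow the fate of the enclosed oocytes: no cleavage (Cl-, 4 libraries, replicates 1 to 4), cleavage but no blastocyst (Bl-, 5 libraries, replicates 5 to 9) and blastocyst (Bl+, 5 libraries, replicates 10 to 14). No treatment, genotype or animal age is given in the labels. The labels do not tell whether any pools shared animals, collection days or batches. The spread between libraries of 1 group may therefore be biological or technical, and these cannot be told apart.

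Cumulus cells are the somatic cells of the ovarian follicle that surround the oocyte. They exchange metabolites with it through cell contacts and secrete a hyaluronan-rich matrix around the time of ovulation. Their RNA is often examined as a readout of the oocyte, because they can be removed without harming it. A pool averages the cells of several complexes, so a transcript that differs between pools of the same fate adds spread against which any difference between fates has to be read. In a bulk pool, fewer cells of a type and less RNA per cell cannot be told apart. Gene names were not used here: 0 of the 38030 Ensembl transcript identifiers matched the reference table of 37063 genes, so the labelled cell type was not checked against marker genes and no gene functions are given.

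Libraries held an estimated 28.5 to 39.6 M sequenced fragments (M, 1000000). Transcripts at 1 TPM or more numbered 18259 in Bl+ replicate 14 and 18676 in Bl+ replicate 12, the lowest counts, and up to 19913 in Bl- replicate 5. The median log2(TPM + 1) over tested transcripts was likewise lowest in Bl+ replicates 12 and 14, at 3.31 and 3.35, and highest in Bl- replicate 5, at 3.71. Transcripts under 1000 bases took 37.5% of all TPM in Bl+ replicate 12, above the 32.3% to 36.0% of the other libraries. The part these features have in the members' spread was not tested, and the main counts and medians that rest on Bl+ replicate 12 or 14 are also given without them.

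The members were shorter and less abundant than the other eligible transcripts, properties the rule used only through its limits on mean TPM. Their median length was 1323 bases against 2170, and 73 of 200 (36.5%) were under 1000 bases against 1229 of 10233 (12.01%). Their median mean level was 17.9 TPM against 30.1, and 108 of 200 (54%) lay below 20 TPM against 31.5%. The identifiers of 113 members (56.5%) carried version number 1, which in Ensembl marks a transcript model whose sequence has not been revised since it was added, against 2666 (26.1%) of the others. Most members came from fewer fragments, with a median of 535 per library against 1266.

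The members' spread can be set beside counting error as a description only, since a large residual SD made the choice. The SD that fragment counting alone would give had a median of 0.09 on the log2 scale for members and 0.04 for the other eligible transcripts. The members' residual SD was a median of 9.09 times this value, from 1.79 to 85.1 times. It also holds any difference between pools, which counting error does not. Fragments here are not independent molecules where PCR copies were kept, so this comparison covers counting error only. The ratio of the highest to the lowest library had a median of 8.18 for members and 1.52 for the others. In 37 members the lowest library was under 1 TPM, and in 16 of them it was exactly 0, while 43 members stayed at 10 TPM or more in all 14 libraries.

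The members' spread was unevenly shared among libraries. Bl+ replicate 12 carried 23.3% of the members' summed squared residuals, against 15.5% for the other eligible transcripts. Bl+ replicates 14 and 10 followed with 9.56% and 8.99%, each below their 12.7% and 10.7% of the others. The lowest residual of a member lay in Bl+ replicate 12 for 60 members, in Bl+ replicate 14 for 35 and in Bl+ replicate 10 for 21. The highest residual lay in Bl+ replicate 10 for 51 members, in Cl- replicate 4 for 20 and in Bl- replicate 5 for 19. A residual is taken from the group's own mean, which a very low library pulls down. By TPM itself, Bl- replicate 5 was the highest library for 41 members and Bl+ replicate 10 for 20. Cl- replicate 4 and Bl+ replicate 14 were highest for 19 each. Within groups, the median SD of the members was 0.54 in Cl-, 0.66 in Bl- and 0.91 in Bl+, and 118 of 200 members had their largest SD in Bl+. The other eligible transcripts had the same order of groups at lower values, 0.13, 0.14 and 0.17. The members' median SD in Bl+ was 0.76 without replicate 12, 0.82 without replicate 14 and 0.62 without both. It thus stayed above the 0.66 of Bl- without either one alone, and not without both. In these settings 88, 102 and 63 members had their largest SD in Bl+. Leaving out libraries of large residuals lowers a group's SD by itself, and the same was not done for Cl- or Bl-. For the other eligible transcripts the Bl+ median SD was likewise lower in these settings, at 0.14, 0.16 and 0.11.

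**Figure D1:**
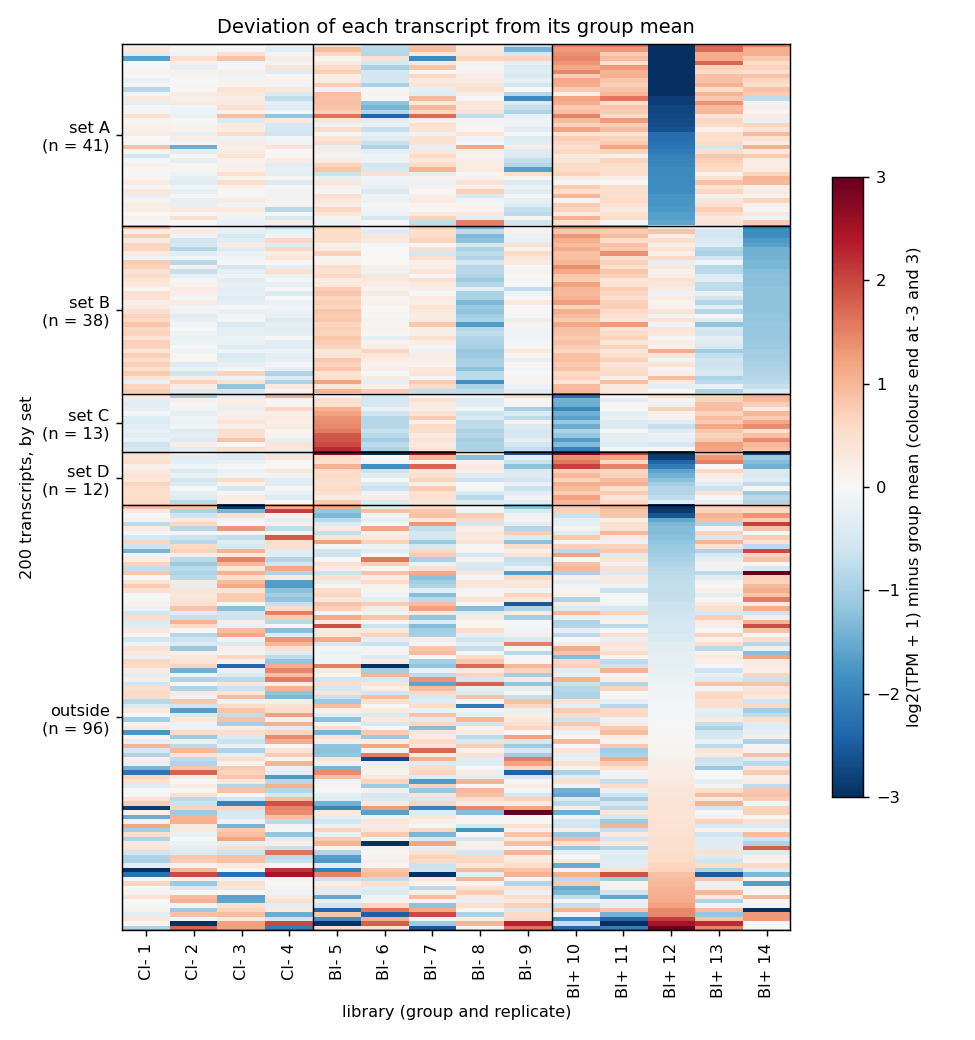
Each line of the colour map is 1 of the 200 members and each column a library. Colour gives log2(TPM + 1) minus the mean of the library's own group, from -3 (blue) to 3 (red). Members are arranged by the sets described in the text and, within a set, by their deviation in 1 library (Bl+ 12 for A, D and the members outside the sets, Bl+ 14 for B, Bl- 5 for C). All 41 members of set A are lowest in Bl+ replicate 12.

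To obtain spread values that the choice had not used, 200 transcripts were chosen by the same rule from the libraries of only 2 groups, and their SD was then measured in the group left out. Chosen without Cl-, 130 of 200 (65%) lay above the 90th percentile of within-Cl- SD over eligible transcripts, and their median SD was 0.40 against 0.13 for the rest. Chosen without Bl-, 172 (86%) lay above that percentile in Bl-, with a median of 0.55 against 0.14. Chosen without Bl+, 160 (80%) did so in Bl+, with a median of 0.66 against 0.17. These choices shared 159, 163 and 126 transcripts with the 200 members. Transcripts that varied between pools of 2 fates thus also varied between pools of the remaining fate.

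The difference was also seen within broad ranges of abundance, with transcript length not matched. With Cl-, Bl- and Bl+ left out, the chosen transcripts had median lengths of 1352, 1437 and 1418 bases. Those of the rest were 2170, 2175 and 2178 bases. Among transcripts at 10 to 20 TPM in the choosing groups, the chosen ones had median SDs of 0.41, 0.55 and 0.68 in the left-out Cl-, Bl- and Bl+ libraries, against 0.15, 0.18 and 0.22 for those not chosen. At 20 TPM or more the medians were 0.40, 0.57 and 0.65 against 0.11, 0.12 and 0.15. The count above the 90th percentile ranged from 94 to 149 for Cl-, 148 to 178 for Bl- and 145 to 171 for Bl+ when each library was left out in turn.

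**Figure D2:**
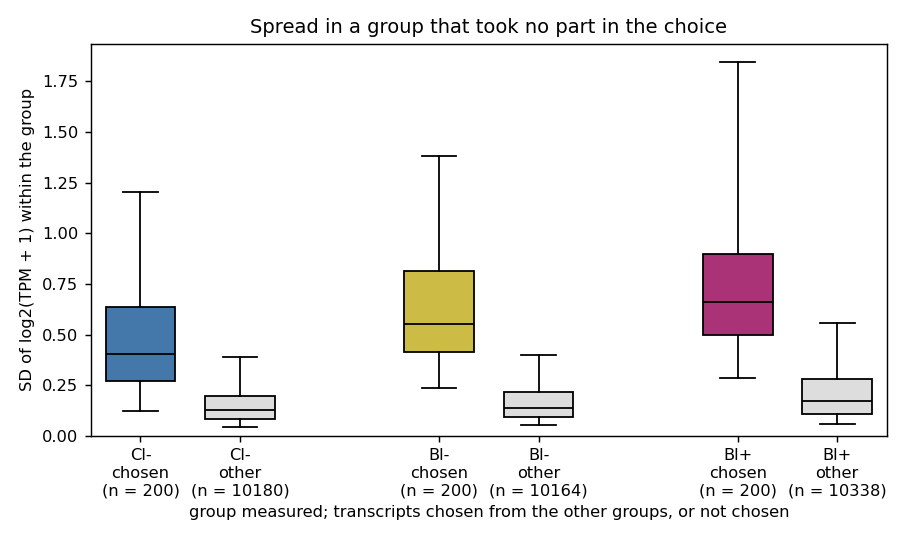
Within-group SD of log2(TPM + 1) in the group that took no part in the choice, for the 200 transcripts chosen on the other groups and for the remaining eligible transcripts. Median SDs of the chosen transcripts were 0.40 in Cl-, 0.55 in Bl- and 0.66 in Bl+, against 0.13, 0.14 and 0.17 for the rest. Boxes span the quartiles and whiskers percentiles 5 to 95.

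The member with the largest residual SD, ENSBTAT00000084955.1 (642 bases, residual SD 2.55), switched between near absence and a moderate level inside each group. It stood at 9.17, 0.00703, 22.0 and 38.4 TPM in Cl- replicates 1 to 4, at 0.00075, 58.1, 7.04, 33.3 and 83.2 TPM in Bl- replicates 5 to 9, and at 8.48, 0.00688, 88.0, 73.5 and 14.4 TPM in Bl+ replicates 10 to 14. In Cl- replicate 2, Bl- replicate 5 and Bl+ replicate 11 these values came from less than 1 estimated fragment. Each group thus held 1 library with less than 1 estimated fragment, and the groups overlapped over nearly their whole range. Among 10533 transcripts searched, the 2 whose residuals ran most closely with it were of 1207 and 1640 bases, and neither was a member. Their Pearson r was 0.91 and 0.89 over the 14 libraries. They were picked as the highest of so many, so these values are a description.

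ENSBTAT00000075509.1 (8235 bases, residual SD 2.34) was present in all 4 Cl- libraries and under 1 TPM in some pools of the other groups. Its level was 37.9, 28.3, 20.7 and 18.8 TPM in Cl-, 51.1, 0.00054, 45.6, 8.27 and 0.317 TPM in Bl-, and 54.4, 32.0, 0, 13.6 and 0.0904 TPM in Bl+. By fragment counting alone, the value of 0 in Bl+ replicate 12 allows a level of up to 0.0189 TPM, the worth of 3 fragments of this long transcript. That limit does not cover reads assigned to an isoform or near-identical copy. Bl- replicates 6 and 9 and Bl+ replicates 12 and 14 stood under 1 TPM, while the highest libraries of both groups exceeded 50 TPM. Its closest transcript of the 10533 searched, a member of 10116 bases, had r = 0.97, likewise picked as the highest.

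The third member by residual SD, a transcript of 3528 bases, differed from its group in 1 library. It measured 288, 325, 324 and 343 TPM in Cl-, and 365, 174, 525, 339 and 189 TPM in Bl-. In Bl+ it measured 365, 388, 0.595, 436 and 370 TPM. Bl+ replicate 12 held an estimated 39.2 fragments of it, so the transcript was detected there at a level far below the 174 TPM of the next lowest library. The 2 transcripts most like it over 10533 compared were also members, of 1353 and 2103 bases, with r of 0.995 and 0.992, which rest largely on that same library. This transcript and those of 576 and 2356 bases below were singled out after their values were seen.

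The next 2 named members never fell under 10 TPM. ENSBTAT00000002019.5 (3520 bases, residual SD 1.15) had the largest spread among members never under 10 TPM. It measured 17.8, 20.99, 38.2 and 33.3 TPM in Cl-, 193, 20.1, 53.4, 20.1 and 23.4 TPM in Bl-, and 13.4, 59.6, 55.4, 133 and 106 TPM in Bl+. Bl- replicate 5 lay far above the other 4 Bl- libraries, and both Bl+ replicates 13 and 14 exceeded 100 TPM while Bl+ replicate 10 was the lowest of all libraries. ENSBTAT00000081135.1 (1314 bases, residual SD 1.03) was the most abundant of those named. It measured 399, 1702, 2140 and 831 TPM in Cl-, 410, 484, 926, 621 and 678 TPM in Bl-, and 447, 1389, 376, 416 and 3092 TPM in Bl+. Its high libraries were Cl- replicates 2 and 3 and Bl+ replicates 11 and 14, a pattern that placed it in none of the sets below.

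**Figure D3:**
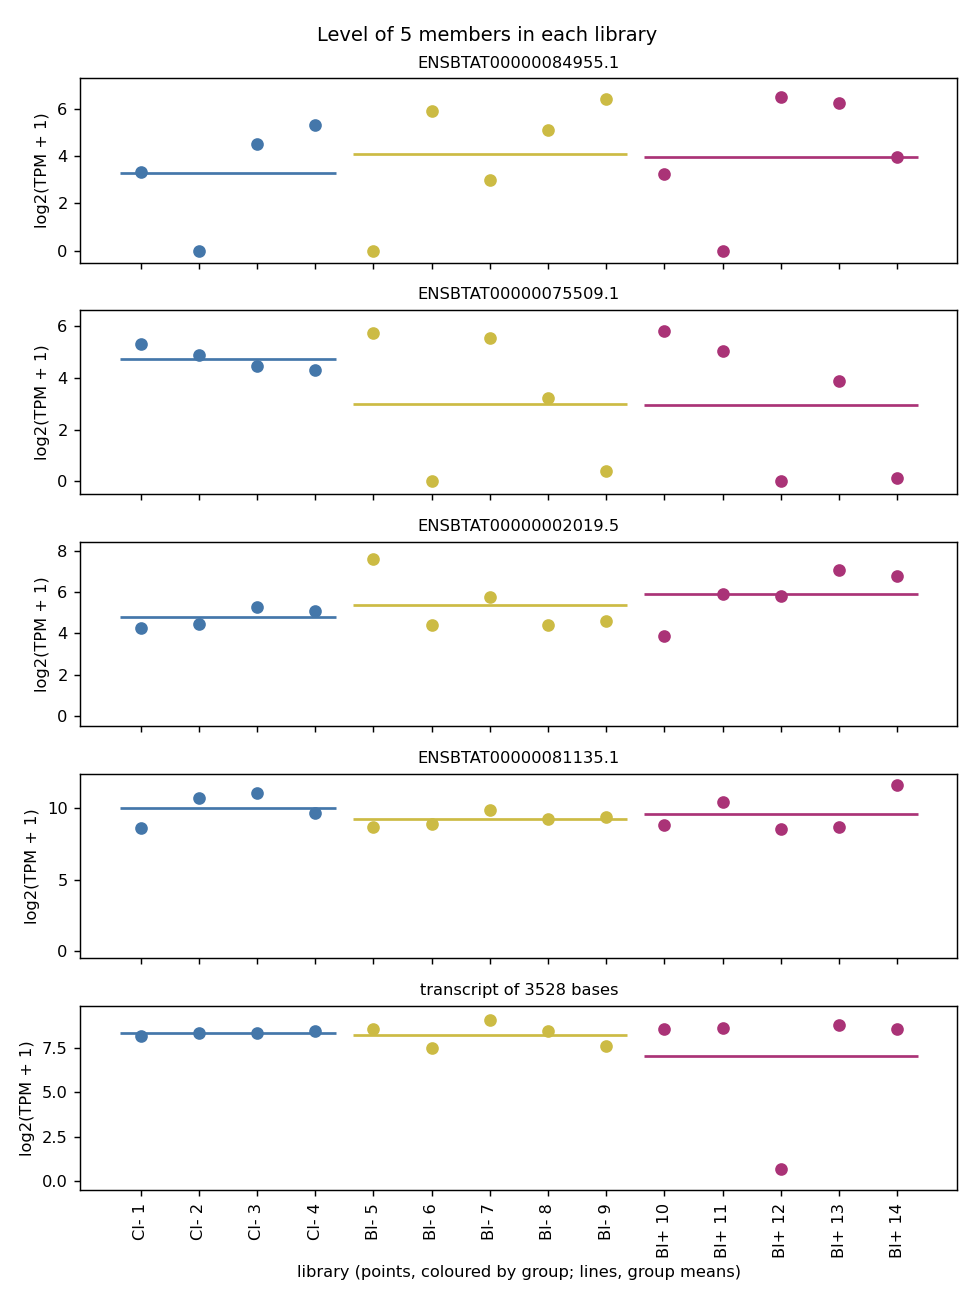
Level of 5 members in each library as log2(TPM + 1), coloured by group, with lines at the group means. ENSBTAT00000084955.1 falls to near 0 in 1 library of each group, and the transcript of 3528 bases falls from 365 TPM or more to 0.595 TPM in Bl+ replicate 12 alone among the Bl+ libraries.

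Many members varied together. Average-linkage clustering of their residuals, with sets formed at a mean Pearson r of 0.6, gave 4 sets of at least 10 members, named A to D by size and holding 104 members. A further 80 members fell into 25 sets of 2 to 9, and 16 stood alone. The sets depend on the clustering: with complete linkage 31 of 41 in A, 24 of 38 in B, 11 of 13 in C and 5 of 12 in D stayed together, and a limit of r = 0.5 joined A and D in 1 set of 58. The limit was chosen after the data were seen, and because the sets were built from these values, the levels that follow describe them. Levels are given as the median over a set's members of the TPM in a library divided by that transcript's median over all 14 libraries.

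Set A, with 41 members, was low in Bl+ replicate 12. The ratio there was 0.0762, against 0.868 to 1.16 in 11 libraries and 0.737 and 0.71 in Bl- replicates 6 and 9. All 41 members had their lowest residual in Bl+ replicate 12. Their mean levels ran from 10.0 to 317 TPM, their median length was 2103 bases, and 25 identifiers were of version 1. Without Bl+ replicate 12 only 8 of the 41 still ranked among the 200 most variable.

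The near absence in this pool extended beyond set A. A member was counted as near absent in a library when its TPM was under 10% of its median over the other 13 libraries, which held for 45 members in at least 1 library. Bl+ replicate 12 accounted for 30 of them, 27 in that library alone, followed by 7 in Bl- replicate 6 and 4 in Cl- replicate 1, with 1 to 3 in each of the others. Of the 30, 23 belonged to set A and 4 to set D. In 16 of them Bl+ replicate 12 held less than 1 estimated fragment, while across the other libraries their median was 723 fragments. No member was above 10 times its other-library median except 1 in Bl+ replicate 14. Of the other eligible transcripts, 0 of 10233 met this definition, but near absence in 1 library itself gives a large residual SD, so the choice of members bears on this count.

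The same deficit appeared among transcripts that the rule could not take. Of 3033 transcripts with a mean of 5 to 10 TPM, 29 were near absent in Bl+ replicate 12, against 2 to 12 in each of the other 13 libraries. The members near absent in Bl+ replicate 12 were also low in 3 further pools, with median ratios of 0.586 in Bl- replicate 6, 0.594 in Bl- replicate 9 and 0.746 in Bl+ replicate 14. The 29 less abundant transcripts had 0.637, 0.526 and 0.808 in those libraries, while all 3033 had medians of 1.00, 0.959 and 0.879. These pools were picked after their values were seen, and the members' values there entered the choice, so the ratios are a description.

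**Figure D4:**
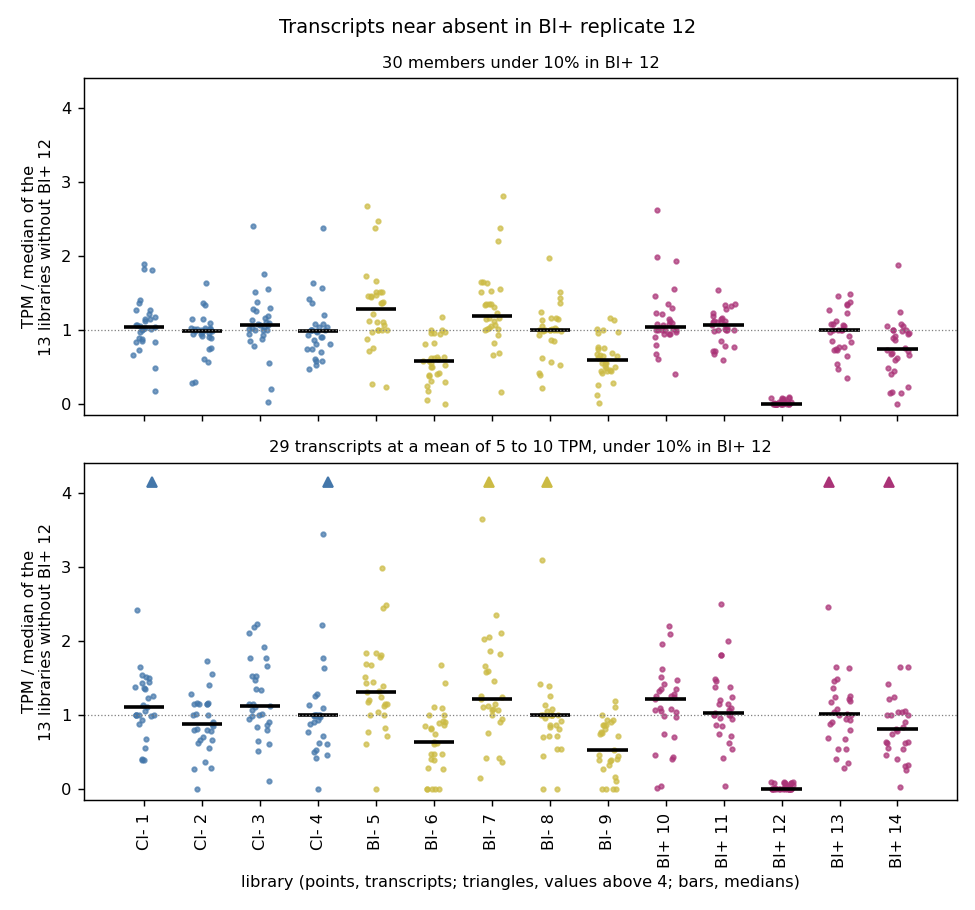
TPM in each library divided by the transcript's median over the 13 libraries other than Bl+ replicate 12, for the 30 members near absent there (upper panel) and for the 29 transcripts of 5 to 10 TPM near absent there (lower panel). Points are transcripts, triangles are values above 4 and bars are medians, which in Bl- replicates 6 and 9 are 0.586 and 0.594 above and 0.637 and 0.526 below.

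Set B, with 38 members, was graded over many pools and held short transcripts. Its ratio was lowest in Bl+ replicate 14 (0.321), Bl- replicate 8 (0.456) and Bl+ replicate 13 (0.50), and highest in Bl- replicate 5 (1.59), Bl+ replicate 10 (1.54) and Cl- replicate 1 (1.49). The lowest residual lay in Bl+ replicate 14 for 26 members and the highest in Bl+ replicate 10 for 27. Its median length was 1007 bases, 18 members were under 1000 bases, and 30 of 38 identifiers were of version 1. No member of set B fell under 1 TPM in any library.

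The libraries at the ends of set B's range also stood at the ends of a measure over all transcripts. Bl+ replicate 14, Bl+ replicate 13 and Bl- replicate 8 detected 18259, 18874 and 18933 transcripts at 1 TPM or more, and Bl- replicate 5, Cl- replicate 1 and Bl+ replicate 10 detected 19913, 19857 and 19770, the highest counts. Bl+ replicate 12, with 18676, was low in this measure and not in set B. The part of this measure in set B was not tested. Without Bl+ replicate 14, 18 of the 38 kept their place among the 200, and without Bl- replicate 8, 21 did.

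Set C, with 13 members including ENSBTAT00000002019.5, was high in a few pools. The ratio was 3.51 in Bl- replicate 5, 3.02 in Bl+ replicate 14 and 2.97 in Bl+ replicate 13, and lowest in Bl+ replicate 10 (0.529), Cl- replicate 1 (0.578) and Cl- replicate 2 (0.608). All 13 members had their lowest residual in Bl+ replicate 10. Of its 13 identifiers 2 were of version 1, and its median length was 2090 bases. It did not turn on Bl+ replicate 12, without which all 13 stayed among the 200. Without Bl- replicate 5 or without Bl+ replicate 10, 9 of 13 did.

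Set D, with 12 members including ENSBTAT00000075509.1, was low in Bl+ replicate 12 (0.240) and Bl+ replicate 14 (0.405). Its highest ratios were 1.58 in Bl- replicate 5, 1.54 in Bl- replicate 7 and 1.5 in Bl+ replicate 10. These were the longest transcripts of the 4 sets, with a median of 2816 bases, and 8 of 12 identifiers were of version 1. Without Bl+ replicate 12, 7 of 12 stayed among the 200, and without Bl+ replicate 14, 10 did.

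**Figure D5:**
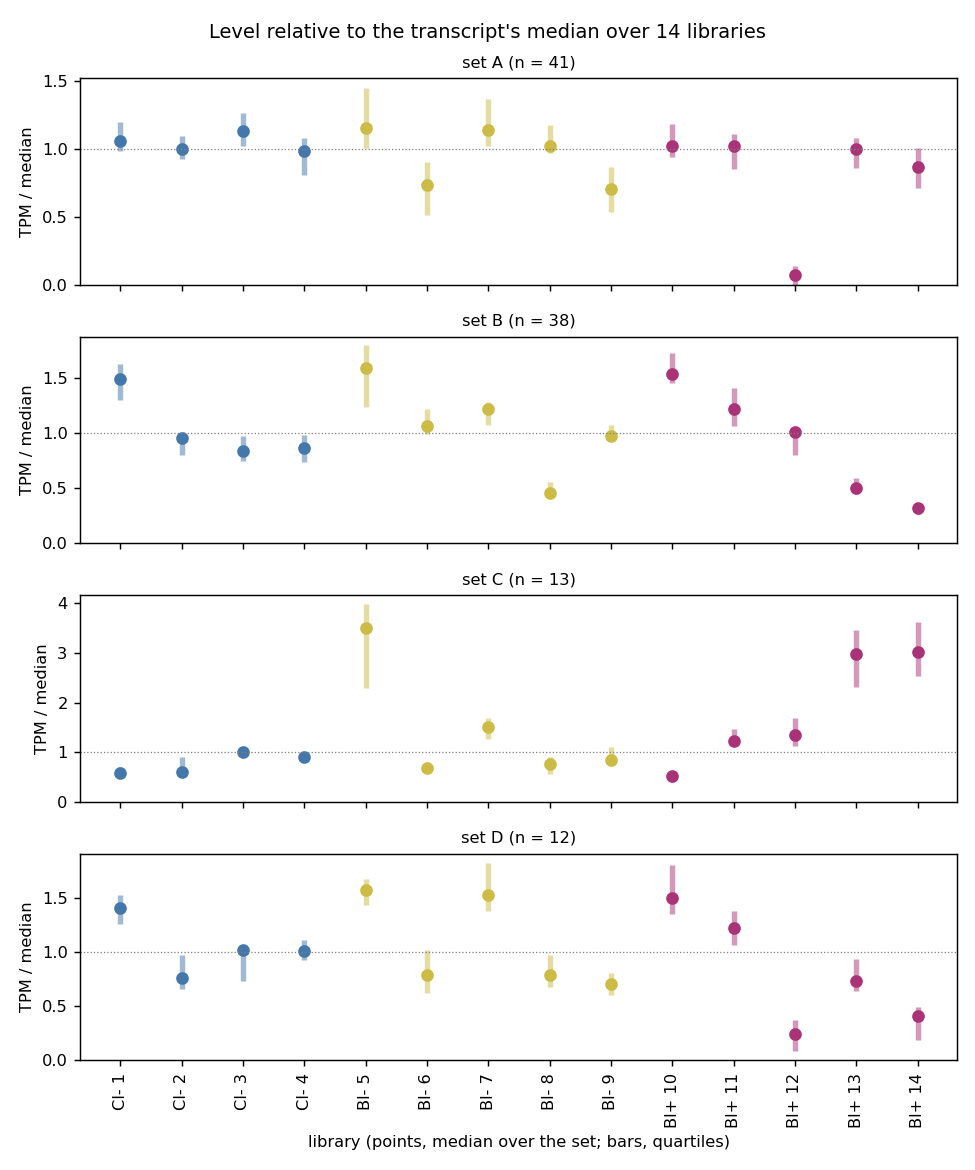
Level of the members of sets A to D in each library, as TPM divided by the transcript's median over the 14 libraries (points, medians over the set, and bars, quartiles). Set A falls to a median of 0.0762 in Bl+ replicate 12, set B to 0.321 in Bl+ replicate 14, set C reaches 3.51 in Bl- replicate 5 and set D falls to 0.240 in Bl+ replicate 12.

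The 96 members outside these sets had no pattern common to all of them, and the median correlation between pairs of them was 0.01. Most of them nevertheless fell into the smaller sets mentioned above. Their median length was 1323 bases, and 39 were under 1000 bases. Leaving out single libraries kept between 73 (without Cl- replicate 4) and 93 (without Bl- replicate 8) of the 96 among the 200, and 85 without Bl+ replicate 12.

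The fates were then compared transcript by transcript, the question being whether cumulus RNA differs with what the oocyte later does. All 200 members entered the fit. The rule selects for large spread within groups, which enters the standard error, so the members had a median SE of 0.44 for Bl+ against Bl- where all 20488 tested transcripts had 0.15. In the comparison of Bl+ with Bl-, 0 members had an adjusted p under 0.05 by limma with Benjamini-Hochberg adjustment, and the background was also 0 (0% of 20488). The smallest adjusted p of a member was 0.3965. At an unadjusted p under 0.05 there were 16 members (8%), 13 lower and 3 higher in Bl+, against a background of 8.50% in either direction, 6.71% lower and 1.79% higher. The members' share was thus close to that of all transcripts. Leaving out Bl+ replicate 10 raised the count to 25 members, and the share of all transcripts in that setting is not given here.

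In direction, 138 members were lower in Bl+ than in Bl- and 62 higher, with a median difference of -0.31, beside 67.5% lower and -0.07 over all transcripts. After scaling by trimmed means 132 members were lower with a median of -0.24, where 50.1% of all transcripts were lower. The direction varied with the libraries kept, and the cause was not tested. Without Bl+ replicates 12 and 14, an alternative chosen after seeing the data, 93 members were lower and 107 higher with a median of 0.05. All transcripts then stood at 52.4% lower with a median of -0.01. Without Bl+ replicate 12 alone, 112 members were lower with a median of -0.08, beside 61.5% lower and -0.05 over all transcripts. All 41 members of set A were lower in Bl+ (median -0.58), but 12 of 41 without Bl+ replicates 12 and 14. All 12 of set D were lower (median -0.52), but 4 of 12 without them, and 35 of 38 in set B were lower (median -0.31), but 18 without them. Single libraries moved these medians too. Set A's median was 0.07 (14 of 41 lower) without Bl+ replicate 12 and -0.67 (41 of 41) without Bl+ replicate 14. Set B's median was -0.03 without Bl+ replicate 14, -0.16 without Bl+ replicate 13 or Bl- replicate 5, -0.53 without Bl+ replicate 10 and -0.55 without Bl- replicate 8. Set D's median was -0.15 without Bl+ replicate 12, -0.34 without Bl+ replicate 14 and -0.31 without Bl- replicate 5 or 7. Set C was higher in Bl+ for 13 of 13 (median 0.35), and for 9 without Bl+ replicates 12 and 14. Its median was 0.12 without Bl+ replicate 13 (9 of 13 higher), 0.16 without Bl- replicate 6, 0.20 without Bl+ replicate 14 (9 of 13 higher), 0.22 without Bl- replicate 8, 0.75 without Bl- replicate 5 and 0.79 without Bl+ replicate 10. The 96 members outside the sets were divided 50 to 46, with a median of -0.03.

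The transcript of 576 bases had the smallest p of the members. It measured 118, 189, 323, 142 and 139 TPM in Bl- and 268, 767, 448, 457 and 620 TPM in Bl+. The means were 182 ± 82.7 TPM (SD, n = 5) and 512 ± 189 TPM (n = 5), the ranges overlapped, and the difference of 1.5 (SE 0.38) had an adjusted p of 0.3965 by limma. Its Cl- values of 432, 164, 196 and 628 TPM spanned both groups. The transcript of 2356 bases went the other way, with 102, 307, 119, 299 and 99.5 TPM in Bl- and 31.1, 62.9, 55.9, 91.1 and 71.9 TPM in Bl+. It was picked as the largest difference among members whose Bl+ and Bl- libraries do not overlap, so that lack of overlap is no finding. The share of all transcripts without overlap is not given here. For this transcript the difference was -1.44 (SE 0.45, adjusted p = 0.4444 by limma). In Cl- it measured 108, 63.7, 142 and 28.1 TPM, again across both groups.

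For the named members of largest spread, the errors exceeded the differences between Bl+ and Bl-. ENSBTAT00000084955.1 differed by -0.10 (SE 1.42), ENSBTAT00000075509.1 by -0.01 (SE 1.31), the transcript of 3528 bases by -1.18 (SE 1.22), ENSBTAT00000002019.5 by 0.52 (SE 0.65) and ENSBTAT00000081135.1 by 0.39 (SE 0.57). A 2-fold difference, 1 on this scale, is less than 2 of any of these standard errors. Without Bl+ replicates 12 and 14 the transcript of 3528 bases turned to 0.43 and ENSBTAT00000075509.1 to 1.93.

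Bl+ against Cl- shares the Bl+ libraries with the comparison above, so its direction is not independent of it. No member passed an adjusted p of 0.05 by limma, as for all transcripts (0%), and the smallest adjusted p of a member was 0.6452. At an unadjusted p under 0.05, 8 members (4%), 1 lower and 7 higher, compared with a background of 7.45% (5.27% lower and 2.19% higher). This count changed with the library left out. It was 3 without Cl- replicate 1 or Bl+ replicate 14, and 4 without Cl- replicate 3 or Bl+ replicate 13. It was 14 without Bl+ replicate 11, 16 without Cl- replicate 4 and 19 without Bl+ replicate 10. Shares over all transcripts are not given for these settings, so the changes are not read as particular to the members. Of all members 135 were lower and 65 higher, with a median of -0.28 (all transcripts 68.1% lower, -0.08). The median was -0.14 without Bl+ replicate 12, -0.11 without Bl+ replicate 14 and 0.04 without both, where 96 members were lower. Over all transcripts these medians were -0.05, -0.05 and -0.02, with 55.1% lower without both. Set A was lower in Bl+ for 41 of 41 (median -0.75), and set C higher for 13 of 13 with a median of 1.03. Set C kept 13 of 13 higher without Bl+ replicates 12 and 14, with a median of 0.74, whereas set A fell to 27 of 41 lower.

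Bl- against Cl-, the comparison without Bl+ libraries, divided the members nearly evenly. There were 94 lower and 106 higher in Bl- with a median of 0.01, and 50.5% of all transcripts were lower. No member had an adjusted p under 0.05 by limma (smallest 0.6574), against 1 of 20488 transcripts (0.00488%), which was no member. At an unadjusted p under 0.05 there were 6 members (3%), 1 lower and 5 higher, against 6.10% of all (3.09% lower and 3.01% higher), and 10 members without Cl- replicate 2 or without Bl- replicate 7. Shares over all transcripts with a library left out are not given. Set A was lower in Bl- for 30 of 41 members with a median of -0.14, which was 0.01 (20 of 41) without Bl- replicate 6, -0.05 (23 of 41) without Bl- replicate 9 and -0.21 (33 of 41) without Bl- replicate 5. Set C was higher in Bl- than in Cl- for 13 of 13, with a median of 0.52, which fell to 0.16 (12 of 13) without Bl- replicate 5. Set B divided 18 to 20 and set D 6 to 6.

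Summed over the 200 members, the level did not differ detectably between fates. It was 9845 ± 1235 TPM in Cl- (SD, n = 4), 9280 ± 638 in Bl- (n = 5) and 9387 ± 1724 in Bl+ (n = 5), which is 0.742% to 1.17% of all TPM in a library. Exact permutation tests, two-sided, gave p = 0.9048 for Bl+ with Bl-, 0.6825 for Bl+ with Cl- and 0.4286 for Bl- with Cl-, each 0.9048 after Benjamini-Hochberg adjustment over the 3 tests. The lowest sum was 7420 TPM in Bl+ replicate 12 and the highest 11669 TPM in Bl+ replicate 14, so the range within Bl+ contained that of all other libraries. Without these 2 libraries the Bl+ sum was 9283 ± 1180 TPM (SD, n = 3). Abundant members weigh most in such a sum, and ENSBTAT00000081135.1 alone gave 3092 TPM of that in Bl+ replicate 14.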

How the data were processed

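Values are TPM that the authors deposited for each Ensembl transcript of 14 libraries of poly-A RNA, estimated by kallisto. The submitters' processing notes also list FastQC and fastp. Their versions and the genome build were not given in the sources used here. The method divides reads among isoforms and near-identical copies, so 1 transcript's level depends on those listed beside it. Library depth was estimated here from the steps of TPM times effective length, where 63.6% to 66.1% of the low values were whole multiples to within 0.03.

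Groups came from the sample labels, whose numbers mark libraries and pair none. Transcripts at 1 TPM or more in at least 4 libraries (20488) entered limma (version 3.58.1, R 4.3.3) on the log2(TPM + 1) scale. A single fit over the 3 groups used a trended variance, and two-sided p-values were adjusted by Benjamini-Hochberg. A log2(TPM + 1) difference understates changes of low transcripts. The procedure was also run on simulated data with independent noise for each transcript. Those data held no deviation shared by many transcripts of a library, so the run does not cover such deviations. With no word on separate animals, p-values reflect the spread of these libraries, which may be technical.

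Members and lists were chosen with earlier results of these data known. Identifiers were named by rule: the 2 members of largest residual SD and the 2 of largest residual SD whose lowest library held 10 TPM or more. The gene lists planned could not be applied without gene names. Alternatives covered scaling, pseudocount, filters, variance model, the 10 TPM floor, the measure of spread and each library left out.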

Additional observations from a re-analysis of the deposited data

Results flagged for a closer look

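The 7 named members, the summed level and the number of transcripts at 1 TPM or more were examined in each group, 27 cases in all, and 2 held a library far from the others of its group. Chance gives about 1 in 20, but the members were chosen for their spread within groups, so the number is not to be read against that rate. ENSBTAT00000002019.5 stood at 193.5 TPM in Bl- replicate 5, against 20.10 to 53.45 TPM in the other 4 Bl- libraries. The transcript of 3528 bases stood at 0.5954 TPM in Bl+ replicate 12, against 365.2 to 435.8 TPM in the other 4 Bl+ libraries.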

How the results depend on the processing

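No paired analysis was made, because the labels pair no libraries. Whether pools shared animals or collection days is not known. Settings with 2 libraries removed (Bl+ replicates 12 and 14), within-group SDs with libraries removed, and those for the sets were chosen after seeing the data. Of the 200 members, 105 were shared with the choice at a floor of 5 TPM and 92 at 20 TPM, all 92 that could qualify, and 140 to 199 under the other settings. Leaving out each library in turn left 150 to 189. At an unadjusted p under 0.05, Bl+ against Cl- had 3 members without the filter on low values, 3 without the intensity trend and 18 with array weights, and 1 transcript then passed adjustment both without the trend and with weights. For Bl- against Cl-, members numbered 10 with array weights, 13 with only the 2 groups and 12 without Bl+ replicates 12 and 14, and 0 transcripts passed adjustment at a pseudocount of 0.1 or without those replicates. In the Bl+ against Bl- difference, ENSBTAT00000075509.1 turned to 0.0171 with trimmed means, 0.0184 with quantile normalization, 0.0097 at a pseudocount of 5, 1.21 with array weights and 1.93 without Bl+ replicates 12 and 14. Without those replicates the transcript of 3528 bases turned to 0.43 against Bl- and 0.31 against Cl-, while against Cl- ENSBTAT00000084955.1 turned to -0.14 and ENSBTAT00000075509.1 to 0.17. Summed TPM of Bl+ minus Cl- turned to 88.6 with trimmed means. For all of these the cause was not tested.

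With each library left out in turn, transcripts past adjustment numbered 0 to 3 for Bl+ against Bl- (3 without Cl- replicate 4), 0 to 1 for Bl+ against Cl- (1 without Bl+ replicate 10) and 0 to 1 for Bl- against Cl-, and members at an unadjusted p under 0.05 numbered 13 to 25, 3 to 19 and 5 to 10. Members past adjustment stayed at 0 in each. No share of all transcripts at an unadjusted p under 0.05 is given beside the members' counts in this section. Summed TPM differences ran from -463 to 599, -1029 to 33.8 and -1053 to -80.8. Differences that changed sign were those of ENSBTAT00000084955.1 (-1.12 to 0.89, -0.41 to 1.68 and -0.31 to 1.80 in the 3 comparisons), ENSBTAT00000075509.1 (-0.75 to 0.73, Bl+ against Bl-), ENSBTAT00000081135.1 (-0.10 to 0.66, likewise), the transcript of 3528 bases (-1.62 to 0.41, -1.74 to 0.28 and -0.34 to 0.0608) and that of 2356 bases (-0.74 to 0.0254, Bl+ against Cl-). Depth limits the 30 members with under 100 fragments per library.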
